A study of Mus musculus with 4 samples.

Results

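Pharyngeal endoderm is the epithelium that lines the embryonic pharynx and folds outward into the pharyngeal pouches, from which the thymus and the parathyroid glands later form. Its pouches are known by the transcription factors Pax9 and Pax1. Its pioneer factors Foxa1 and Foxa2 mark gut endoderm in general, and Shh is a secreted signal of the ventral foregut that is read by cells carrying the receptor Ptch1. Endoderm of the thyroid and lung buds is known for Nkx2-1. The endoderm examined here came from single cells of the Tbx1 lineage of mouse embryos at E9.5, and 476 barcodes of the 35228 that passed the filters, or 476 of the 2402 epithelial ones, were counted as members.

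Members were chosen by measured values. A barcode, which stands for 1 droplet and usually 1 cell, had to hold at least 3000 genes and at most 10% mitochondrial unique molecular identifiers (UMIs, each counting 1 captured transcript). It had to be epithelial, with at least 2 UMIs of Epcam, at least 3 of Epcam, Cldn6, Cldn7 and Cdh1 detected and no UMI of the endothelial gene Cdh5. Of the genes Pax9, Pax1, Foxa1, Foxa2 and Shh, at least 2 had to be detected, and more of them than of 5 surface ectoderm genes (Foxi2, Trp63, Tfap2a, Sostdc1, Wnt6) or 5 otic genes (Oc90, Fbxo2, Lmx1a, Sox10, Col9a2). The same gate gave 1091 ectoderm and 494 otic barcodes, and left 341 unresolved. Just inside the rule, 233 members held exactly 2 of the endoderm genes, while 47 epithelial barcodes with 1 endoderm gene and none of the other sets, and 42 in which the endoderm genes were tied with another set, fell just outside. Going by whichever of the ectoderm and otic sets had more genes detected, 248 members held 1 of its genes and 28 held 2.

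The embryos were Tbx1Cre/+; Kmt2d F/+; GFP F/+ (cHet) or Tbx1Cre/+; Kmt2d F/F; GFP F/+ (cKO), labelled as outbred SwissWebster (the study's methods give a mixed Swiss Webster and C57BL/6 background for its mice), and live GFP-positive cells of the pharyngeal region and heart were sorted. Cre is knocked into Tbx1, so the control embryos are Tbx1 heterozygotes as well, and Cre acts only where Tbx1 has been expressed. Each genotype had 2 libraries, of 4 pooled embryos in Rep1 and 3 pooled embryos in Rep2, made with a different kit in each replicate. The embryos of a pool could not be told apart, so the library is the replicate (n = 2 per genotype). Levels are given as CPM, the UMIs of a gene scaled to the same total in each summed set of barcodes. Members numbered 52 in cHet Rep1, 46 in cKO Rep1, 130 in cHet Rep2 and 248 in cKO Rep2, with median depths of 23117, 26514, 24405 and 21225 UMIs per member and 1226500, 1351413, 3211538 and 5395625 UMIs in all. The libraries of a replicate shared 87 barcodes in Rep1 (12 that passed the filters) and 71 in Rep2 (46 that passed), and no barcode was shared across replicates. Of the members, 5 held over 2 times the median UMIs of the members in their library. Markers of another cell type were held by 69 and hepatic markers by 2, and each genotype count was repeated without such barcodes.

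The shares of the 5 endoderm genes among members are set in large part by the rule and are given as a description. Pax1 or Pax9 was detected in 93.3% of the members, and the commonest combination, Pax9 with Pax1 and none of the other 3 genes, accounted for 153 members. Pax9 was detected in 90.8% of members, Pax1 in 66.0%, Foxa1 in 52.9%, Foxa2 in 28.8% and Shh in 27.7%. In 1583 endothelial barcodes of the same libraries, which should lack these genes, Pax9 was detected in 2.78%, Pax1 in 0.758% and Shh in 0 of 1583, which allows a share of up to 0.190% of barcodes with a UMI and sets no limit on cells that express it. Endothelial barcodes had medians of 16613 to 29376 UMIs, near the depth of the members.

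Nkx2-1, a further marker of foregut endoderm that the rule did not use, was nearly absent. Nkx2-1 was detected in 3 of the 476 members (0.630%), all in cKO Rep2, with 18 UMIs. Hhex, a factor of the early thyroid and liver buds, was detected in 5 members. Gcm2, the parathyroid factor, was detected in 11, and Foxn1, the thymus factor, in 0 of 476, which allows a share of up to 0.630% of barcodes with a UMI. Of the 11 endoderm markers that the rule did not use, 8 to 10 had a UMI in each library, and their summed level was 596 to 700 CPM in endoderm, 484 to 620 in ectoderm and 195 to 257 in otic barcodes, so that the ranges of endoderm and ectoderm overlapped. These markers alone do not set endoderm apart from ectoderm.

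**Figure D1:**
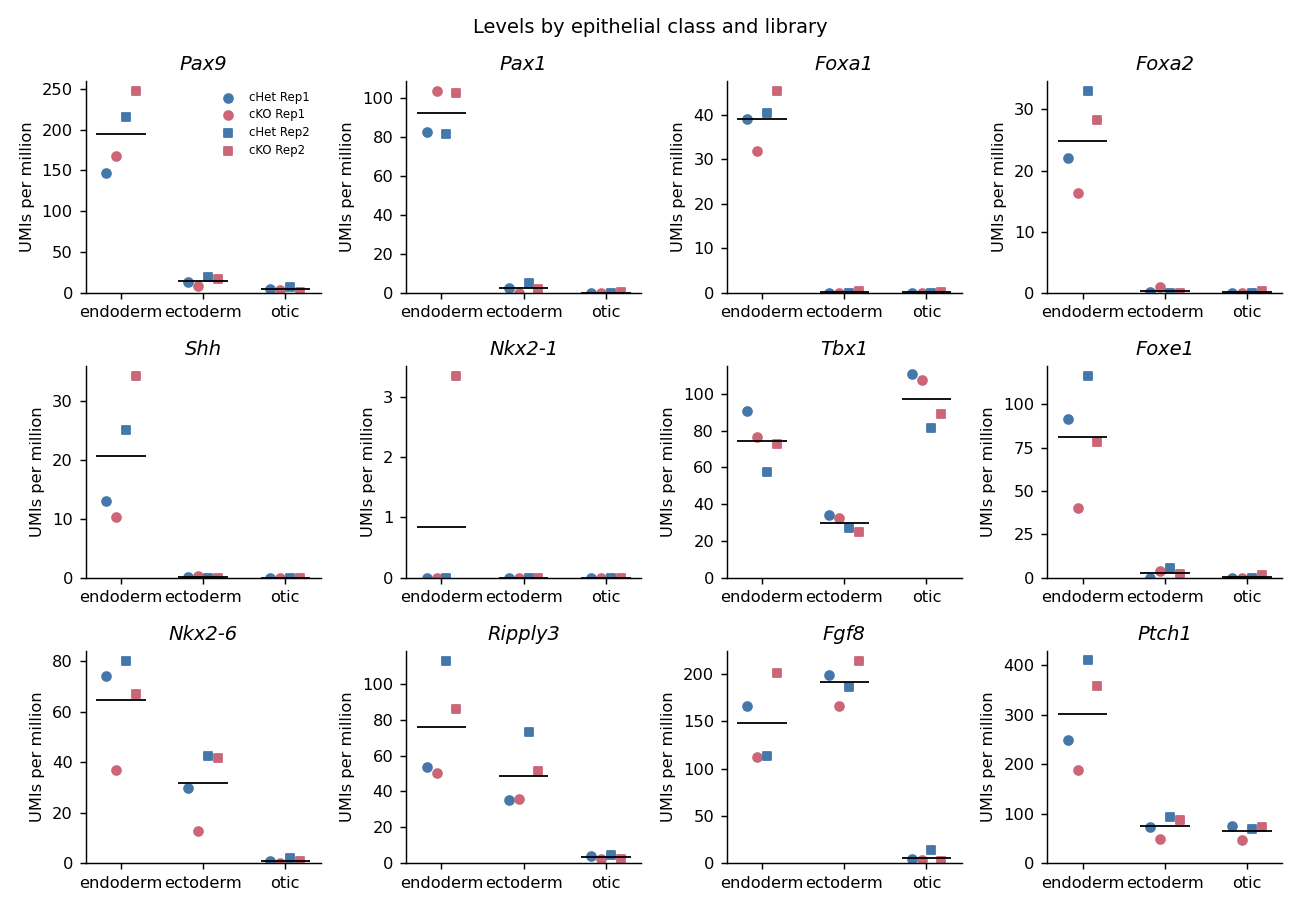
Each point is the level of a gene in 1 library, as CPM, in endoderm, ectoderm and otic barcodes; blue is cHet, red is cKO, circles are Rep1, squares are Rep2 and the line is the mean of the 4 libraries. Pax9, Pax1, Foxa1, Foxa2 and Shh chose the classes, Foxe1 and Ptch1 are high in endoderm without having been used, and Nkx2-1 was found in 1 library.

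At full depth, the share of endoderm among epithelial barcodes was higher in cKO by 5.21 percentage points in Rep1 and by 0.093 in Rep2. It was 11.6% in cHet Rep1 (95% exact binomial interval 8.77 to 14.9%), 16.8% in cKO Rep1 (12.6 to 21.8%), 22.5% in cHet Rep2 (19.1 to 26.1%) and 22.5% in cKO Rep2 (20.1 to 25.1%). The mean was 17.0% ± 7.69 (SD, n = 2) in cHet and 19.7% ± 4.07 (SD, n = 2) in cKO. These SDs hold the difference between the replicates, which used different kits. An exact two-sided permutation test, which does not use the replicate, gave p = 0.667, and with 2 against 2 libraries it cannot go below 0.333, so that it could not have shown a difference. After each barcode was thinned to 6000 UMIs and classed again, the cKO minus cHet difference was 1.90 points in Rep1 and -1.30 in Rep2. Those shares rest on 8 to 53 endoderm barcodes per library. Of all barcodes that passed, endoderm made up 0.834% in cHet Rep1, 0.691% in cKO Rep1, 1.33% in cHet Rep2 and 1.97% in cKO Rep2, so that it was lower in cKO in Rep1 and higher in Rep2. The intervals cover counting error only, and the sort and dissection can set these shares. The file of cHet Rep1 also held more barcodes than the study counted as cells in it, and more passed the filters here than it counted.

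**Figure D2:**
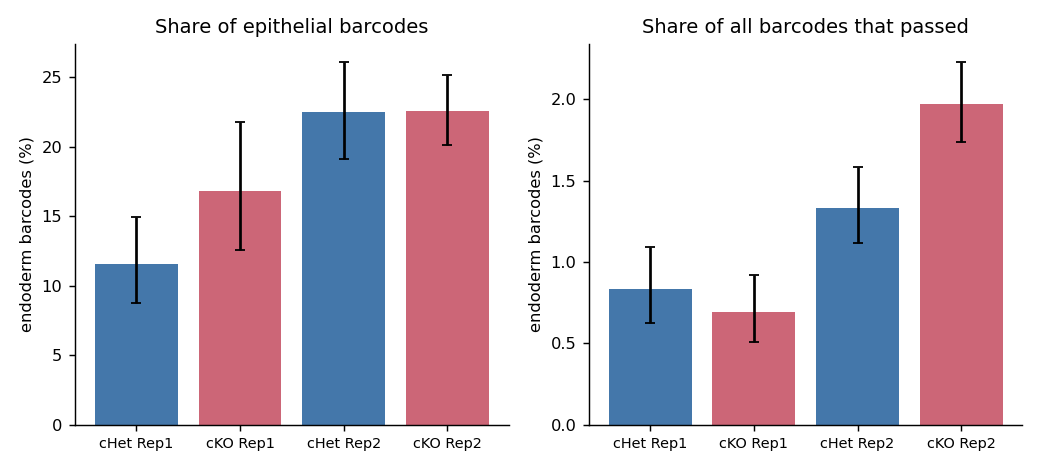
Bars are the endoderm share in each library, in percent of epithelial barcodes (left) and of all barcodes that passed (right), with 95% exact binomial intervals. The replicates differ from each other by more than the genotypes do on the left, and the genotypes go in opposite directions in the 2 replicates on the right.

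Compared with ectoderm of the same libraries, endoderm had more RNA of 5 of 16 pouch regulators and of 5 of 13 foregut, thyroid and lung genes tested. Of 8 neuronal markers tested, 7 were lower (median log2 difference -3.20, against 0.01 for all genes tested). Of 4 neural crest markers 2 were lower (median -3.12, summed level 6.85 to 16.3 CPM in endoderm and 67.9 to 103 in ectoderm). Of 10 mesenchyme markers 4 were lower and 1 higher (median -0.63, summed level 199 to 382 and 412 to 488 CPM). Of the 6 endoderm markers outside the rule that could be tested, only Nkx2-3 was higher and none was lower (median 0.14). Of 5 ectoderm markers outside the rule that were tested, 3 were lower and 1, Vgll2, was higher (median -1.88). The ectoderm list outside the rule summed to 140 to 226 CPM in endoderm and 90.9 to 119 in ectoderm. Both notochord and floor plate markers tested, Ntn1 and Nog, were higher, and the summed level of that list was 68.4 to 114 CPM in endoderm and 11.2 to 17.1 in ectoderm. The 1 hepatic and visceral endoderm marker tested, Trf, was higher (3.24). That list summed to 4.98 to 293 CPM in endoderm and 0.871 to 5.62 in ectoderm, so that the ranges overlapped. The part of these marker lists in the differences was not tested. Counts were summed per library and class and tested with edgeR (quasi-likelihood test, library as a block, Benjamini-Hochberg adjusted p under 0.05 and at least 2-fold), without the genes of the rule. Of 12104 genes tested, 289 were higher (2.39%) and 421 lower (3.48%) in endoderm. Since UMIs of the same cells set the classes, these counts describe the classes and are not evidence for the rule.

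The receptor Ptch1, itself a target of hedgehog signalling, stood at 302 ± 101 CPM (SD, n = 4 libraries) in endoderm and 75.3 ± 19.3 in ectoderm, a log2 difference of 2.05 (SE 0.08). Of 13 hedgehog pathway genes tested, 4 were higher in endoderm and 3 lower, with a median log2 difference of -0.03. Among the higher ones were also the transcriptional effector Gli1, by 1.89, and the ligand-binding inhibitor Hhip, by 2.12 on the log2 scale. The co-receptors Gas1, Boc and Cdon were the lower ones.

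Foxe1, a forkhead factor of the thyroid primordium and the pharynx, was 81.4 ± 31.8 CPM in endoderm and 2.81 ± 2.37 in ectoderm (log2 difference 5.10, SE 0.35). Vgll2, listed as an ectoderm marker, went against its list with 171 ± 32.3 CPM in endoderm and 28.7 ± 5.83 in ectoderm. Of 13 foregut, thyroid and lung genes tested, 5 were higher and 1, the thyroid and ear factor Pax8, was lower. Sox2, a factor of dorsal foregut, was higher by 2.07. Of 16 pouch regulators tested, 5 were higher and none lower: Tbx1 itself by 1.39, Fgf3 by 3.89, Nkx2-5 by 1.62, Nkx2-6 by 1.05 and Nkx2-3 by 1.35 on the log2 scale. Of 14 retinoic acid genes tested, 4 were higher, 1 was lower and 9 were not called. The receptor Rarb (1.53), the synthesizing enzyme Aldh1a1 (2.43) and the degrading enzymes Cyp26a1 (1.46) and Cyp26c1 (2.08) were higher. The binding protein Crabp1 (-1.39) was lower.

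The 10 genes most in excess in endoderm over ectoderm began with Pyy, a gut peptide hormone (log2 difference 6.82, SE 0.32), and the noncoding 9030622O22Rik (6.78, SE 0.35), which lies beside the rule gene Foxa2. They included the serotonin receptor Htr4, the homeobox gene Nkx2-9, Vit and Rfx6, a factor of endocrine gut and pancreas, at 5.26 to 5.59. Gm15524 (5.09) and 9530036O11Rik (5.21) were among the 10 too, and overlap the rule genes Pax9 and Shh on the opposite strand, so that they are not independent of the rule. At the other end stood the neurogenic factors Neurog2 (-7.82, SE 0.23) and Neurog1 (-7.50), Tfap2b (-7.59), Wnt9b (-7.08) and Hapln1 (-6.07). Gm26688, Crhr1 and Prdm12 had no UMI in the endoderm of any library and were at least 40.2-fold, 22.2-fold and 9.97-fold lower than in ectoderm, against a floor of 3 counts over the 4 libraries. Gm26688 is an antisense gene within Tfap2a, which was used to choose ectoderm, so its difference is not independent of the rule.

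Of 13 Hox genes tested against ectoderm none was higher, 7 were not called and 6 were lower, among them Hoxb4 (-1.50) and Hoxb5 (-1.85). Against otic barcodes, 8 of 8 tested were higher, with Hoxb1 at 34.5 ± 11.01 CPM in endoderm and 1.16 ± 0.774 in otic barcodes (log2 difference 5.13, SE 0.31). The medians of the tested Hox genes were -0.60 and 3.22, and those of all genes tested were 0.01 and 0.00.

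Against otic barcodes, 566 of 11250 genes tested were higher (5.03%) and 329 lower (2.92%) in endoderm. Both notochord and floor plate markers tested, Ntn1 and Nog, were higher (median 4.12), and 3 of 5 neuronal (median -1.77) and 2 of 3 neural crest markers (median -2.73) were lower, and their part in these differences was not tested. Of 16 pouch regulators tested, 8 were higher and 4 lower. Ripply3, a repressor that works with Tbx1 in the pouches, was 75.8 ± 29.5 CPM in endoderm and 3.31 ± 1.22 in otic barcodes (log2 difference 4.64, SE 0.18), the signal Fgf8 was higher by 4.81, Nkx2-6 by 6.23 and Nkx2-3 by 7.09. The lower ones included Gata3 (-1.16), Tbx2 (-7.59) and Tbx3 (-1.05). Ptch1 (2.24), Hhip (2.65), Gli1 (1.38) and Foxe1 (7.00) were higher against otic barcodes, as they were against ectoderm. Of 13 hedgehog pathway genes tested, 3 were higher and 2, Cdon and Gas1, were lower, with a median of 0.05. Tbx1 was not past 2-fold, with a log2 difference of -0.36. The noncoding 9030622O22Rik, Tacr1 and Nkx2-9 had no UMI in otic barcodes and were at least 242-fold, 65.2-fold and 32.6-fold higher in endoderm. The most otic genes were Dlx5 (-9.28), BC006965 (-8.53), Slitrk6 (-8.51), Dlx6 (-7.95) and Tbx2 (-7.59), and Otog, the otogelin gene, had no UMI in endoderm (at least 35.6-fold lower).

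Members with and without a Pax1 UMI were set side by side. Pax1 is a gene of the rule, so the calls of this split describe its parts and are no test of a difference within endoderm. Pax1 was detected in 36 of 52, 37 of 46, 79 of 130 and 162 of 248 members, with the libraries in the order of the member counts above (cHet then cKO of Rep1, cHet then cKO of Rep2), an order kept for all lists of 4 values. Of 9350 genes tested without those of the rule, 98 were higher (1.05%) and 112 lower (1.2%) with Pax1, and 62 in all without the library block. The 210 calls became 130 with DESeq2, 113 with at least 3 endoderm genes per member, 74 after thinning, 129 without cHet Rep2 and 102 without cKO Rep2. A member without Pax1 had to hold 2 of the other 4 endoderm genes, and a member can lack a UMI by chance of sampling, so the parts overlap.

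Of 13 FGF pathway genes tested, 5 were higher with Pax1, 8 were not called and none was lower. The ligand Fgf8 was 195 ± 70.0 CPM with Pax1 and 52.8 ± 22.7 without (log2 difference 2.33, SE 0.21). The others called were the ligand Fgf9 (1.85) and the response genes Spry1 (1.48), Dusp6 (1.20) and Etv5 (1.23). Of 5 Notch pathway genes tested, the ligand Jag1 (1.74) and the target Hey1 (2.78) were higher. Of 14 pouch regulators tested 4 were higher, among them Nkx2-6 (1.95), Nkx2-3 (1.31) and Fgf8, and none was lower. The genes of largest excess with Pax1 were Ctxn3 (3.73), Cyp1b1 (3.34), Egfem1 (3.21), AI646519 (3.18), the adhesion receptor Cd44 (3.08), the netrin receptor Dcc (2.98), Hey1, Gabrg3 (2.53), the transmembrane collagen Col25a1 (2.52) and the Wnt modulator Sfrp2 (2.48). AI646519 is an antisense gene that overlaps Pax1 itself, so its difference is not independent of the split. The levels of Egfem1, Dcc and Col25a1 overlapped between the parts across libraries.

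Without Pax1, members held more RNA of 4 of 10 Hox genes tested, among them Hoxb1 (-2.07), Hoxb4 (-1.73) and Hoxc4 (-2.38), and of the retinoic acid receptor Rarb, at 280 ± 93.1 CPM against 110 ± 15.01 with Pax1 (-1.43, SE 0.13). The keratin Krt7 (-1.85) and the laminin Lama1 (-1.22) were also higher without Pax1. So were both notochord and floor plate markers tested, Ntn1 (-1.58) and Nog (-2.30), with a median of -1.94, and their part in the split was not tested. The other 4 markers of that list were not tested and were low in endoderm, with a UMI of T in 5 members (all in Rep2), of Noto in 1, of Foxj1 in 10 and of Chrd in 10 of the 476. The largest differences on that side were Cpn1 (-5.65), Rbp4 (-3.93), 9030622O22Rik (-3.84), which lies beside the rule gene Foxa2, Barx2 (-3.58), the carbonic anhydrase Car4 (-3.53), Apela (-3.51), 9130410C08Rik (-3.18), Krt20 (-3.02), Slc16a12 (-2.93) and Pon3 (-2.81). Rbp4 is a retinol carrier that liver and yolk sac make in large amounts, and 651 of its 710 UMIs without Pax1 were in 1 barcode of cKO Rep2. Its levels overlapped between the parts.

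Hox group 3 genes mark the third and more caudal pouches. Hoxa3, Hoxb3 or Hoxd3 was detected in 184 members, which were 34.6% in cHet Rep1, 32.6% in cKO Rep1, 34.6% in cHet Rep2 and 42.7% in cKO Rep2. After thinning each member to 6000 UMIs the shares were 11.5%, 6.52%, 16.2% and 19.8%, lower in cKO in Rep1 and higher in Rep2. Of 8944 genes tested without the rule genes and these 3, 67 were higher (0.749%) and 94 lower (1.05%) in members with a Hox3 UMI, but only 14 and 1 were called without the library block. Members with a Hox3 UMI were deeper in each library, with medians of 25684.5, 29984, 24839 and 22014 UMIs against 21612, 24690, 24273 and 20272.5, and a member can lack a Hox3 UMI by chance of sampling, so these parts overlap too.

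The other 6 Hox genes tested were all higher with Hox3, among them Hoxb4 (3.02, SE 0.32), Hoxa5 (2.97), Hoxb1 (2.60) and Hoxc4 (2.56). The noncoding genes of the same clusters Hoxaas3 (2.76) and Hotairm1 (2.43) went with them, and reads of Hoxaas3 may not be separable from those of the Hoxa genes it overlaps. Hoxa5 lies within the annotated span of Hoxa3, on the same strand. Among pouch regulators Ripply3 was 144 ± 48.8 CPM with Hox3 and 33.8 ± 18.4 without (2.06, SE 0.14, adjusted p = 3.12e-07), and Tbx1 (1.10), Gata3 (1.02), Nkx2-5 (1.52) and Fgf8 (1.17) were higher too, while Nkx2-3 (-1.25) was lower. Arg1, the cytoplasmic arginase, was higher by 2.09, Palmd by 2.28 and the synaptic adhesion gene Nrxn3 by 2.32. 1700034P13Rik, at 2.07, and Hoxc4 overlapped between the parts.

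On the side without Hox3, which kept 1 of its 94 calls when the library block was left out, members held more RNA of the rostral factor Otx2, at 55.1 ± 37.9 CPM against 6.95 ± 8.29 (-3.61, SE 0.43), and of its neighbour Otx2os1 (-3.79). Rarres1 (-3.37), Slc9a9 (-2.91), the ligand Bmp6 (-2.67), Frmpd4 (-2.64), Cd44 (-2.07) and Slc8a3 (-1.96) were on the same side. Frmpd4, Dcc, at -2.98, and Rbp4, at -4.99, overlapped between the parts across libraries. The retinoic acid degrading enzymes were on opposite sides, with Cyp26b1 higher (1.29) and Cyp26a1 lower (-1.79) with Hox3. Foxe1 (-1.10) and the ligand Fgf10 (-1.15) were lower with Hox3.

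**Figure D3:**
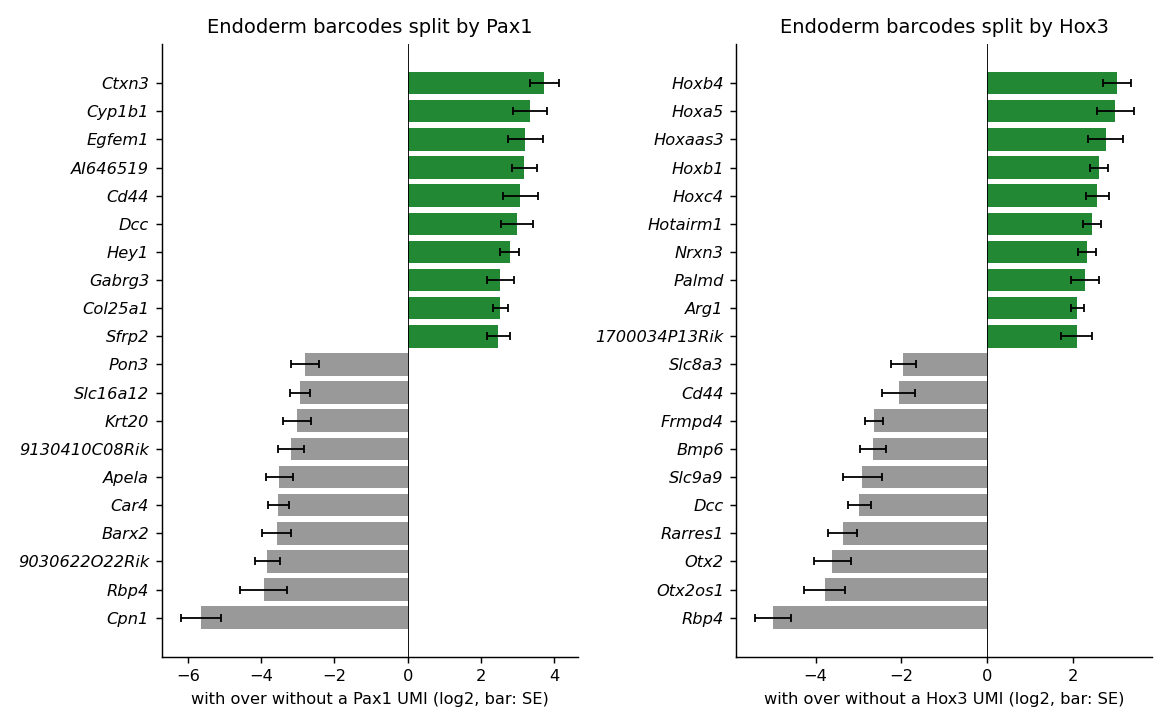
Bars are the log2 differences of the 10 called genes of largest excess on either side, between members with and without a Pax1 UMI (left) and with and without a UMI of Hoxa3, Hoxb3 or Hoxd3 (right), with the SE of the fit. Hox genes lead the Hox3 side, and Otx2 and Otx2os1 stand on the other.

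Genotypes were then compared within endoderm, to see which genes differ where the remaining copy of Kmt2d, a histone H3 lysine 4 methyltransferase, is removed. By the study's somite counts, the cKO range lay within the cHet range in Rep1. In Rep2 the cKO range began where the cHet range ended, so that stage goes with genotype there. The part of stage in the differences was not tested. Kmt2d had 15.5 CPM in cHet Rep1 and 17.8 in cKO Rep1, and 23.98 and 23.0 in the same genotypes of Rep2 (log2 difference 0.02, SE 0.25). UMIs of the 3' end do not check the floxed deletion. Tbx1 had 90.5, 76.2, 57.3 and 72.7 in the same order (0.09, SE 0.16). Of the rule genes, Pax9 (0.19, SE 0.14), Pax1 (0.33, SE 0.15), Foxa1 (0.01), Foxa2 (-0.27) and Shh (0.30) are descriptions, since they chose the members.

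Few genes were called, and the count depended on the fit. With the replicate as a block, edgeR called 50 of 10927 genes (36 higher, 0.329%, and 14 lower, 0.128%), and 502 had an unadjusted p under 0.05. The fit estimated an infinite prior df, so every gene was given the spread of the trend. The p-values of this fit may therefore be too small and its calls too many. Of the 50 genes, 43 had the same direction in both replicates and 7 had opposite ones. Of all genes tested 48.6% had the same direction, and a fit with the replicate as a block favours genes that do, so this count is a description. The fit without the block called 0 genes (52 had an unadjusted p under 0.05), and DESeq2 called 4 (40 had one). The 3 other option sets of the edgeR fit, run after these calls had been seen, called 44, 55 and 60.

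Several of the leading genes rested on single barcodes or on 1 replicate. Rbp4 had 10, 61, 28 and 683 UMIs in that order of libraries, with 42 of the 61 and 651 of the 683 in 1 barcode each. Without the 2 barcodes that hold at least 3 hepatic and visceral endoderm markers, 1 in each cKO library, its log2 difference went from 3.53 to -0.052. Ttr (60 of 61 UMIs of cKO Rep2 in 1 barcode) and Apoa2 (60 of 77 UMIs of cKO Rep1 in 1 barcode) are markers of the same list, whose summed level was 15.5, 293, 4.98 and 17.8 CPM in the 4 libraries.

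Dlg2 had 22.0, 79.9, 74.7 and 4.63 CPM, higher in cKO in Rep1 and lower in Rep2, and its adjusted p was 1.19e-05 by default and 0.999 with robust moderation. Stmn2, a neuronal marker, was lower in cKO in Rep1 (8.15 to 2.22) and higher in Rep2 (1.25 to 25.4). The summed neuronal markers stood at 21.2, 13.3, 14.01 and 58.9 CPM, and their part in the neuronal genes was not tested. Cdh12 had no UMI in cHet and 6 and 26 in the cKO libraries, at least 7.02-fold higher against a floor of 3 counts over the cHet libraries, with the 6 in 1 barcode. Wfdc2, Fgf15, Aldh1a1, Sfrp2 and Igf1 also went in opposite directions in the replicates.

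The transcription factor Ebf2 had 18.8, 62.2, 12.5 and 33.2 CPM (log2 1.53, adjusted p = 1.33e-07) and Ebf1 had 67.7, 122, 16.2 and 38.2 (1.01), both higher in cKO in each replicate. The protease Adamts9 went from 26.1 to 123 CPM in Rep1 and from 28.6 to 31.7 in Rep2. Without barcodes of other-type markers Ebf2 (1.89, adjusted p = 0.183), Ebf1 (1.04, adjusted p = 0.417) and Adamts9 (0.90, adjusted p = 0.176) were no longer called, although their log2 differences stayed near or above those with all members. Ebf1 was also not called without barcodes of high UMI counts (0.58), and Adamts9 not with robust moderation. The summed mesenchyme markers were 345, 382, 199 and 222 CPM. Of 8 of them tested, 1 was called, Prrx1, at 51.4, 132, 23.98 and 28.9 CPM (0.79, adjusted p = 0.00872), and the median was 0.29 against 0.00 for all genes tested. The part of these markers in the calls was not tested. Hpse2 in cKO Rep1 had all 34 UMIs in 1 barcode. Ckb (-0.62), Erbb4 (-0.78) and Vwc2 (-1.56) were lower in cKO in both replicates, but without barcodes of other-type markers their differences were -0.49, -0.096 and -1.81 and were not called. Xist, which females express from 1 X chromosome and which was noticed after its values were seen, had 324, 497, 352 and 504 CPM (0.55), and the sexes of the pooled embryos are not labelled.

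After these values had been seen, the calls were narrowed to genes with the same direction in both replicates that stayed called in the 3 other option sets, without the barcode of most UMIs of each gene in each library, and without barcodes of other-type markers, of hepatic markers or of high UMI counts. Of the 50, 12 did so, 4 higher and 8 lower in cKO. The set leaves out the settings that lost most calls and is a description, not a measure of stability. Of the 12 genes, 0 were called without the replicate block or with any 1 library left out, 3 by DESeq2 (Col25a1, Dcc and D030025E07Rik), 3 after thinning to 6000 UMIs per barcode (Col25a1, Dcc and Crabp1) and 8 among members with at least 3 endoderm genes. AA465934 falls outside the rule for named genes and was named after its values were seen.

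Higher in cKO was Col25a1, at 30.2 in cHet Rep1, 127 in cKO Rep1, 67.9 in cHet Rep2 and 158 CPM in cKO Rep2 (log2 1.49, SE 0.16, adjusted p = 5.78e-17). Both cKO libraries lay above both cHet libraries. The share of all genes tested that separate in this way was not counted. Here and in the genes below, a lack of overlap is therefore a description. Nrg1, the ligand of ErbB receptors, had 41.6, 79.9, 38.3 and 102 in the same order (1.24, SE 0.17, adjusted p = 2.82e-09), and its groups did not overlap either. Dcc had 99.5, 385, 5.92 and 23.9 (1.93, SE 0.18, adjusted p = 4.60e-23). It rose within each replicate, but the level differed so much between replicates that the genotypes overlapped, and without cKO Rep1, in a fit that also had no replicate block, its log2 difference was -1.37. In cHet Rep1, 75 of its 122 UMIs were in 1 barcode. AA465934 had 35.9, 64.4, 15.3 and 29.3 (0.88, SE 0.22, adjusted p = 0.0180), which overlapped in the same way.

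Lower in cKO was Foxe1 (chromosome 4, 46343609 to 46346412, GRCm38), at 91.3 in cHet Rep1, 40.0 in cKO Rep1, 116 in cHet Rep2 and 78.0 CPM in cKO Rep2 (-0.78, SE 0.16, adjusted p = 0.000664). Both cKO libraries lay below both cHet libraries. D030025E07Rik, a noncoding transcript, had 49.7, 13.3, 73.8 and 21.7 (-1.79, SE 0.21, adjusted p = 1.28e-13). Nrxn3 had 83.2, 30.3, 79.4 and 36.0 (-1.25, SE 0.18, adjusted p = 6.18e-09), with 67 of 102 UMIs of cHet Rep1 and 82 of 255 of cHet Rep2 in 1 barcode each.

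In these 2 genes as well the groups did not overlap. Crabp1, a cytoplasmic binding protein of retinoic acid, had 277, 155, 414 and 302 (-0.62, SE 0.14, adjusted p = 0.00218), and its genotypes overlapped across replicates. The netrin receptor Unc5c had 151, 123, 246 and 131 (-0.67, adjusted p = 0.000721), and its groups did not overlap. Csmd1 (-1.07), Tmcc3 (-0.90) and the peptidase Cpq (-0.81) completed the set, with cKO below cHet in each replicate.

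**Figure D4:**
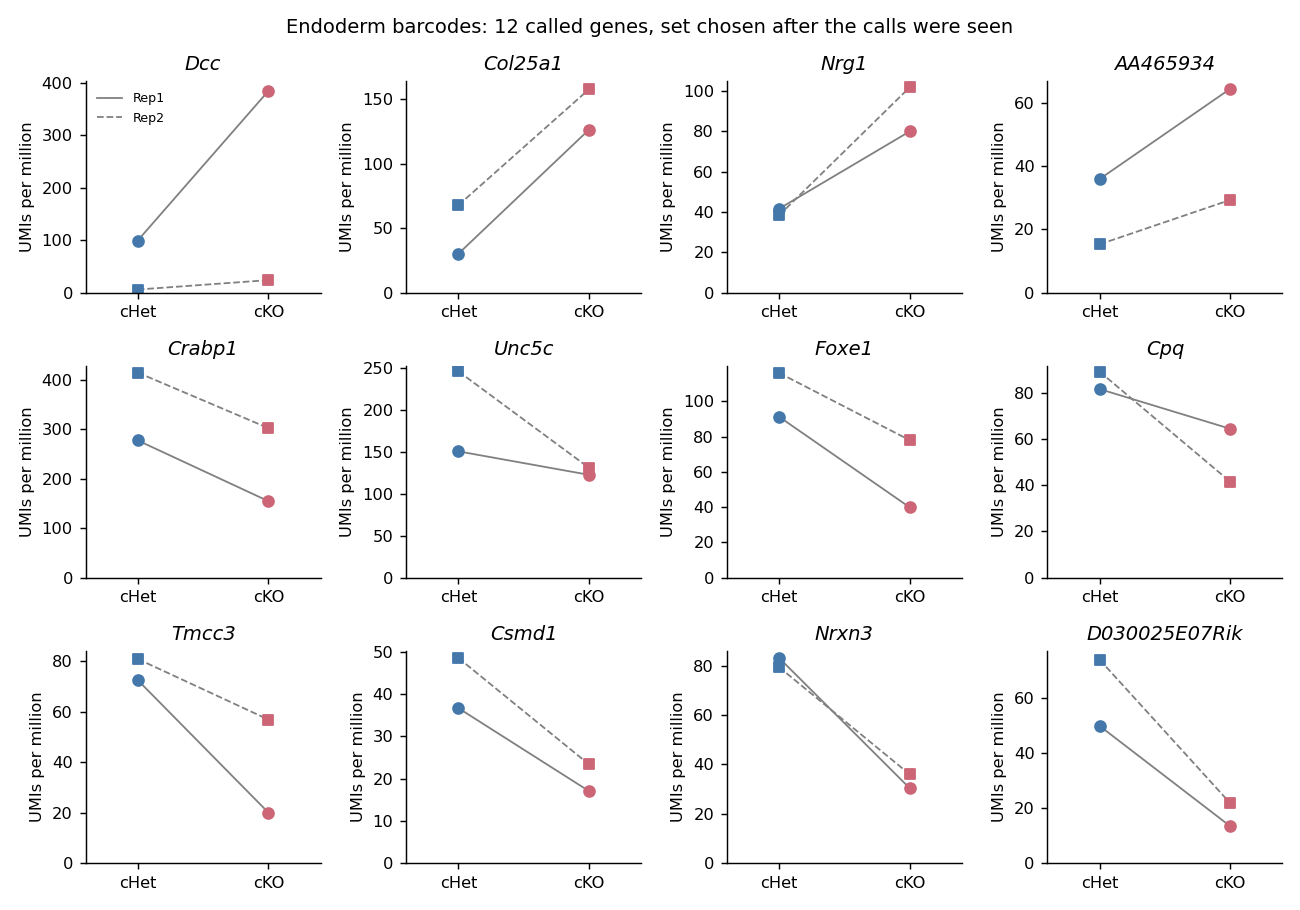
Levels of the 12 genes in endoderm barcodes, as CPM (y axis), a set chosen after the calls were seen, with a solid line joining the libraries of Rep1 (circles) and a dashed line those of Rep2 (squares). Col25a1, Nrg1, Dcc and AA465934 rise and the other 8 fall from cHet to cKO in both replicates, each by its own amount.

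**Figure D5:**
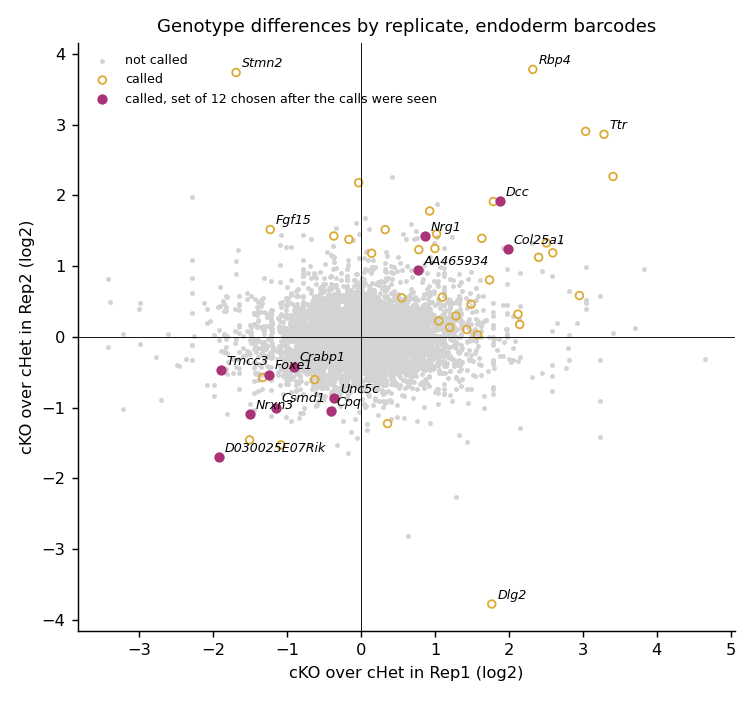
Log2 differences between cKO and cHet in Rep1 (x axis) and Rep2 (y axis) for the 10927 genes tested, with a prior count of 2; grey genes were not called, open circles were called and filled circles are the 12 genes. Dlg2, Stmn2 and Fgf15 lie in the quadrants of opposite direction.

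Calls by genotype in the pathway lists stand beside 0.329% of all genes called higher and 0.128% called lower, which leaves few or none to be found in lists of this size. None of the 15 pouch regulators, 10 Hox genes, 13 hedgehog, 16 BMP, 8 Notch, 28 epithelial structure, 25 cell division, 11 p53 and cell death or 9 Kmt2d complex genes tested was called. Their median log2 differences lay between -0.07 and 0.30, against 0.00 for all genes tested. Foxe1 was the 1 call among 14 foregut, thyroid and lung genes, Fgf15 among 17 FGF genes and Sfrp2 among 22 Wnt genes, and Crabp1 and Aldh1a1 were called among 12 retinoic acid genes. Fgf8 itself had 166, 112, 113 and 201 CPM, lower in cKO in Rep1 and higher in Rep2.

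Of the 12 genes, Dcc, Nrg1, Tmcc3, Csmd1, Col25a1, Nrxn3, Foxe1 and D030025E07Rik were also called between members with and without Pax1 or Hox3. Over all genes tested, 1.05% were called higher and 1.2% lower with Pax1, and 0.749% and 1.05% with Hox3. The share of members with Hox3 went from 34.6% in cHet to 32.6% in cKO in Rep1 and from 34.6% to 42.7% in Rep2. The share with Pax1 was higher in cKO in both replicates, at 69.2% and 80.4% in Rep1 and 60.8% and 65.3% in Rep2. After thinning it was 46.2% in cHet and 50.0% in cKO in Rep1, and 37.7% and 37.1% in Rep2, where it was no longer higher in cKO. Dcc and Col25a1 were higher with Pax1 and higher in cKO, while Dcc was lower with Hox3 (-2.98). Nrxn3 was higher (2.32) and Foxe1 lower with Hox3, and both were lower in cKO. The 12 genes kept their direction in both replicates in 11 cases among members with Pax1, 7 without Pax1, 9 with Hox3 and 12 without Hox3. These parts hold the barcodes on which the genes were chosen for that direction, so their counts are no support for it. In ectoderm 5 and in otic barcodes 4 of the 12 had the direction of endoderm in both replicates. The share of all genes tested that do so was not counted, so these counts are a description. Foxe1 was lower in cKO with Hox3 (24.7 to 6.79 in Rep1, 98.6 to 44.3 in Rep2) and without it (135 to 56.1 and 126 to 107). Dcc went from 34.3 to 9.58 in Rep1 and from 7.27 to 1.62 in Rep2 among members without Pax1, opposite to its direction among members with it. Csmd1 went from 4.12 to 27.1 in Rep1 and from 7.85 to 10.9 in Rep2 among members with Hox3. That is opposite to its direction over all members, and rests on 2, 12, 9 and 27 UMIs. The part of subset shares in the calls was not tested.

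The responses in endoderm and in the other epithelia were compared by the class by genotype term. Of 12903 genes tested, 25 had a higher (0.194%) and 9 a lower response (0.0698%) in endoderm than in ectoderm, and of 12099 genes 29 (0.24%) and 7 (0.0579%) against otic barcodes. The genes of the rule were not left out of these tests. Pax1, which chose members, was 1 of the 25, so that its call is a description. Of 9 neuronal markers tested against ectoderm, Tubb3 was called higher and 8 were not called (median 3.20). Of 8 tested against otic barcodes, Stmn2 and Tubb3 were called higher and 6 were not called (median 1.75). The summed level of neuronal markers in otic barcodes was 49.9, 148, 207 and 150 CPM. Of 6 cardiac muscle markers tested against otic barcodes, Myl7 and Myh7 were called lower (median -2.27), and the summed level of that list was 27.2, 214, 19.4 and 21.9 CPM in otic barcodes, high in cKO Rep1. The part of these markers in the terms was not tested. DESeq2 called 1 and 0 of these, with 25 and 40 genes at an unadjusted p under 0.05. The prior df of the edgeR fits of these terms was infinite against ectoderm and 159 against otic barcodes. Their SEs and p-values may therefore be too small, as in the genotype fit. Without the class by replicate term 2 and 0 were called, with 263 and 295. For Col25a1 the difference between responses was 1.64 (SE 0.20) against ectoderm and 1.60 (SE 0.25) against otic barcodes on the log2 scale. In ectoderm Col25a1 had 66.2, 42.3, 83.4 and 87.6 CPM, and in otic barcodes 46.7, 30.7, 39.1 and 46.1, with no rise in Rep1. For Nrg1 the differences were 1.01 and 1.29. Foxe1 was nearly absent outside endoderm, and its response was not called as different.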

How the data were processed

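RNA of sorted GFP-positive cells was counted in 4 libraries. The deposited matrices hold UMI counts per gene and barcode, made by the authors with Cell Ranger (8.0.1 and mm10 in the submitters' processing notes; the file headers name 7.0.1 for Rep1 and 8.0.1 for Rep2), without scaling. Gene positions were taken from GENCODE M21 (GRCm38), where 32235 of 32285 gene IDs were found. Whole libraries held 179454146 to 234726019 UMIs, and 35228 of 76367 deposited barcodes passed. In Rep1 6238 of 37093 passed in cHet and 6660 of 9307 in cKO. In Rep2 9743 of 13192 passed in cHet and 12587 of 16775 in cKO. The study gives the deposited number as its cell total for each library but cHet Rep1. There its total is lower, and is also below the 6238 barcodes that passed here. The part of this in the shares and sums was not tested.

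Barcodes were classed by the rule and counts summed per library. Levels are CPM of the summed barcodes, without TMM. Tests used edgeR 4.0.16 (TMM, filterByExpr, glmQLFit with default options, Benjamini-Hochberg over all genes tested); DESeq2 was an alternative. No doublet caller was run; barcodes with markers of other types or high UMI counts were left out in alternatives. The replicate was a block because a kit marks each replicate, and libraries of a replicate deviated together (r = 0.652 over 10927 genes). Scripts were tested on simulated data. Named genes were the rule genes, Kmt2d, Tbx1, the called genes of smallest p (15 per direction) by genotype or largest difference (10 per direction) between classes and parts, and genes of the lists. AA465934 was named after its values were seen. The 3 other edgeR option sets, the setting without the top barcode of each gene, and the set of 12 genotype genes were chosen after the calls had been seen. The planned split by Nkx2-1 could not be fitted, with 3 barcodes in 1 library. The members and lists were chosen with earlier results of these data known. Labels do not say that libraries came from separate litters, so the p-values speak only of these libraries. Those of the genotype fit rest on the spread of the trend over genes that is left after the replicate block. Those between classes and parts rest on differences within libraries. Some genes that the naming rule covers are not reported here.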

Additional observations from a re-analysis of the deposited data

Results flagged for a closer look

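For some named genes the cKO over cHet difference in endoderm differed from that in another epithelium by a test of the difference itself (edgeR quasi-likelihood test of the class by genotype term, Benjamini-Hochberg adjusted p). Values are the endoderm minus the other class's log2 difference, and each is 1 of 12 genes against ectoderm or 11 against otic barcodes, with 7 genes in both. Only named genes already called by genotype in endoderm were taken. Over all genes tested, 34 and 36 were called. The endoderm values that gave the genotype calls enter this test too, which favours a difference, so these counts are a description.

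Against ectoderm the differences were Rbp4 3.89 (adjusted p = 5.03e-16), Col25a1 1.64 (adjusted p = 3.01e-13), Ebf2 2.05 (adjusted p = 2.92e-11), Nrxn3 -1.42 (adjusted p = 7.9e-06), Dcc 1.29 (adjusted p = 7.9e-06), Nrg1 1.01 (adjusted p = 0.000649), D030025E07Rik -1.41 (adjusted p = 0.000838), Erbb4 -1.18 (adjusted p = 0.00153), Ebf1 0.94 (adjusted p = 0.00546), Crabp1 -0.71 (adjusted p = 0.0134), Cdh12 8.13 (adjusted p = 0.0141) and Unc5c -0.66 (adjusted p = 0.0474).

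Against otic barcodes they were Dcc 1.69 (adjusted p = 1.68e-06), Ebf2 1.98 (adjusted p = 3.08e-06), Col25a1 1.60 (adjusted p = 6.45e-06), Stmn2 4.12 (adjusted p = 3.44e-05), Aldh1a1 3.15 (adjusted p = 5.17e-05), Nrg1 1.29 (adjusted p = 0.00124), Ebf1 1.17 (adjusted p = 0.0016), Cdh12 7.46 (adjusted p = 0.00771), Erbb4 -1.06 (adjusted p = 0.0156), Csmd1 -1.77 (adjusted p = 0.0214) and Adamts9 1.07 (adjusted p = 0.0312).

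Rbp4 rests on 1 barcode in each cKO library, Cdh12 has no UMI in cHet endoderm so that its fitted value is no bound, and Stmn2 and Aldh1a1 went in opposite directions in the replicates of endoderm. Stmn2 is a neuronal marker, and the tested markers of that list had medians of 3.20 against ectoderm and 1.75 against otic barcodes. Without barcodes of other-type markers, Ebf2 (1.89), Ebf1 (1.04), Erbb4 (-0.096), Adamts9 (0.90) and Stmn2 (1.71) were no longer called by genotype in endoderm. The class by genotype terms were not repeated without these barcodes. The prior df was infinite against ectoderm and 159 against otic barcodes, so the adjusted p-values may be too small. DESeq2 called 1 and 0 genes of the whole comparisons, and the fits without the replicate term 2 and 0. The groups hold 2 libraries each, so no library could be tested as standing apart within its group.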

How the results depend on the processing

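The counts of genotype genes and of genes with a different response depended strongly on the processing. For genotype genes in endoderm, against 50 in the fit reported, the count was 0 without the replicate block, 4 with DESeq2, 19 with at least 3 endoderm genes per member, 6 after thinning to 6000 UMIs, 30 without barcodes over 2 times the median UMIs, 23 without barcodes with markers of other types and 0 to 1 with 1 library left out, whichever library it was. Leave-one-out fits had no block, and a lone library was assumed to vary like the others. It was 52 with library totals, 58 with no filter and 45 without hepatic-marker barcodes. Of the settings chosen after the calls were seen, the 3 option sets gave 44, 60 and 55, and leaving out the top barcode of each gene gave 36, of which 32 were among the 50. At an unadjusted p under 0.05 there were 52 genes without the block, 40 with DESeq2 and 79 to 254 with a library left out.

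Among named genes, the sign turned for Rbp4 without hepatic-marker barcodes (-0.052). It also turned with a library left out, which also left out the block, for 7 genes, whose log2 differences then ranged from -1.37 (without cKO Rep1) to 5.35 for Dcc, from -0.33 (without cKO Rep1) to 2.49 for Ebf1, from -0.037 (without cHet Rep2) to 1.26 for Wfdc2, from -0.74 (without cKO Rep2) to 3.65 for Stmn2, from -3.40 (without cKO Rep2) to 2.98 for Fgf15, from -1.31 to 0.44 (without cHet Rep2) for Igf1, and from -3.49 to 0.88 (without cKO Rep2; 0.73 without cHet Rep2) for Dlg2. The cause was not tested.

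The genes called against ectoderm fell from 710 to 426 and against otic barcodes from 895 to 459 after thinning, where fewer genes were tested. With a library left out they ranged from 555 to 857 and from 722 to 1026. The Pax1 counts were 130 with DESeq2, 394 with no filter, 62 without the library block, 113 with at least 3 endoderm genes and 74 after thinning, against 210, and 102 (without cKO Rep2) to 281 with a library left out, with 129 without cHet Rep2. The Hox3 counts were 300 with no filter, 15 without the library block and 46 after thinning, against 161, and 161 to 179 with a library left out. The tests of the response against ectoderm and otic barcodes called 1 and 0 with DESeq2 and 2 and 0 without the replicate block, against 34 and 36. The difference in endoderm share (2.65 points) ranged from -2.79 without cHet Rep1 to 8.09 without cHet Rep2, and was -0.23 without cKO Rep2. It was 0.30 after thinning, where Rep2 turned to -1.30, and 0.90 with at least 3 endoderm genes. Without barcodes over 2 times the median UMIs of all that passed in their library it was 2.19.

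The split by Nkx2-1 was not run. Few members per library (46 to 248) limit the depth of every summed profile.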
